A study of Homo sapiens with 18 samples.

Results

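The transcriptome of MM1S cells treated with RSL3 was compared with that of untreated MM1S cells across all expressed genes. The comparison used 6 of the 18 libraries of the series, 3 per group. They were taken as the libraries whose labels name the line MM1S and either RSL3 alone or no treatment. MM1S is a human multiple myeloma line that responds to glucocorticoids, and MM1R, from which 9 of the 18 libraries came, is its glucocorticoid-resistant counterpart. The remaining 3 MM1S libraries received Fer-1 before RSL3. The study treated both lines with RSL3, with or without a pre-treatment with the ferroptosis inhibitor ferrostatin-1 (Fer-1), to follow early transcriptional changes in ferroptosis. Treated MM1S cells received 5 µM RSL3 for 3 h, and control cells are labelled as untreated, with no solvent control named. Each treatment was applied at passages 16, 22 and 23, so that every RSL3 library has an untreated partner of its own passage. The 6 libraries came from one established line grown in culture. The p-values use a spread between passages in the treatment effects, estimated over all 18 libraries of both lines, and not a spread between patients.

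RSL3 inhibits GPX4, the selenium-containing enzyme that reduces lipid hydroperoxides with glutathione, and cells without its activity accumulate oxidized phospholipids in the presence of iron. Cells meet oxidative and electrophilic stress with a small set of transcriptional programmes. NRF2 induces glutathione synthesis, thioredoxin enzymes and heme oxygenase, HSF1 induces heat shock proteins, MTF1 induces metallothioneins when free zinc rises, and ATF4 induces amino acid import and synthesis when translation initiation is slowed. Plasma cells such as MM1S secrete large amounts of protein and depend on the proteasome and on the chaperones of the endoplasmic reticulum (ER).

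The 6 libraries held 17635438 to 19368343 counted reads, so the depth was nearly equal. Expression is given as CPM, the reads of a gene relative to the library size after TMM scaling, always in the order of passages 16, 22 and 23, and 3 counts in a library correspond to about 0.154 CPM. Markers of the line were examined in untreated cells. Their levels in MM1R are not given beside them, so these values alone do not tell the lines apart. The glucocorticoid receptor gene NR3C1 was at 152, 96.6 and 89.9 CPM in untreated cells, the plasma cell surface gene SDC1 at 644, 682 and 682 CPM and MAF, the oncogene overexpressed through the translocation of this line, at 1350.0, 948 and 1024 CPM. Of 20 markers of B cells, T and NK cells, myeloid cells, fibroblasts and epithelium, 15 were too low to be tested, and the other 5 are CD79B, CD3E, CD68, EPCAM and COL1A1. COL1A1, a fibroblast collagen gene, was the single one of them to pass the test, from 1.09, 0.627 and 0.452 CPM in untreated cells to 19.5, 0.746 and 1.23 CPM after RSL3 (log2 fold change 2.68, SE 0.70, FDR = 0.0274), and the 2 groups overlapped. Its log2 fold change was 0.81, FDR = 0.393 without the RSL3 library of passage 16.

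The RSL3 library of passage 16 stood apart from the other 5. Its TMM factor was 0.864 against 1.01 to 1.04, and its 50 most abundant genes took 19.6% of its reads. The chi-square per degree of freedom that separates it from the other RSL3 libraries was 147 and 171. That between the RSL3 libraries of passages 22 and 23 was 8.26. Passage 16 differed in the other MM1S groups too, though less. Its untreated library gave 25.3 and 34.8, against 8.74 between passages 22 and 23. Its library with Fer-1 and RSL3 gave 32.3 and 40.6, against 12.9. The share of reads on the 2 mitochondrial ribosomal RNAs was 0.687, 0.53 and 0.407% in untreated cells and 1.02, 0.671 and 0.536% after RSL3, higher after RSL3 in each passage, and its part in the results was not tested. One library outside the comparison, labelled as the second replicate of MM1R with Fer-1 and RSL3, carries expression that resembles MM1S. It is in neither of the 2 groups compared, but enters the estimate of the spread, the filter for low counts and the scaling. Without it 14646 genes were tested, and 319 were higher and 72 lower, close to the counts that follow. Of the 387 genes called below, 366 were called again.

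Differentially expressed genes (DEGs) were defined by an FDR under 0.05, the Benjamini-Hochberg adjusted p of edgeR's quasi-likelihood test, with a log2 fold change over 1 in size. Of 14281 genes tested, 387 were DEGs (2.71%), of which 315 were higher after RSL3 (2.21%) and 72 were lower (0.504%). With no limit on the fold change, 969 genes were higher (6.79%) and 935 lower (6.55%). Of these, the genes under the fold limit were 654 higher and 863 lower. The median log2 fold change was 0.00 over all tested genes, 1.63 over the DEGs that rose and -1.22 over those that fell. A rise of more than 4-fold was fitted for 103 DEGs and of more than 16-fold for 20, while 2 DEGs fell by more than 4-fold. The passage was a block in this fit, and all 18 libraries shared 1 estimate of the spread. Without the block, 193 genes were higher and 37 lower, and 209 of the 387 DEGs were called again. With the 6 MM1S libraries alone, edgeR called 0 genes with the block, with 2826 at an unadjusted p under 0.05, and 3 genes without it (MSC, SRXN1 and GCLM), so that the other calls rest on the spread shared with the other groups. DESeq2 with all libraries and the block called 292 genes higher and 69 lower.

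**Figure D1:**
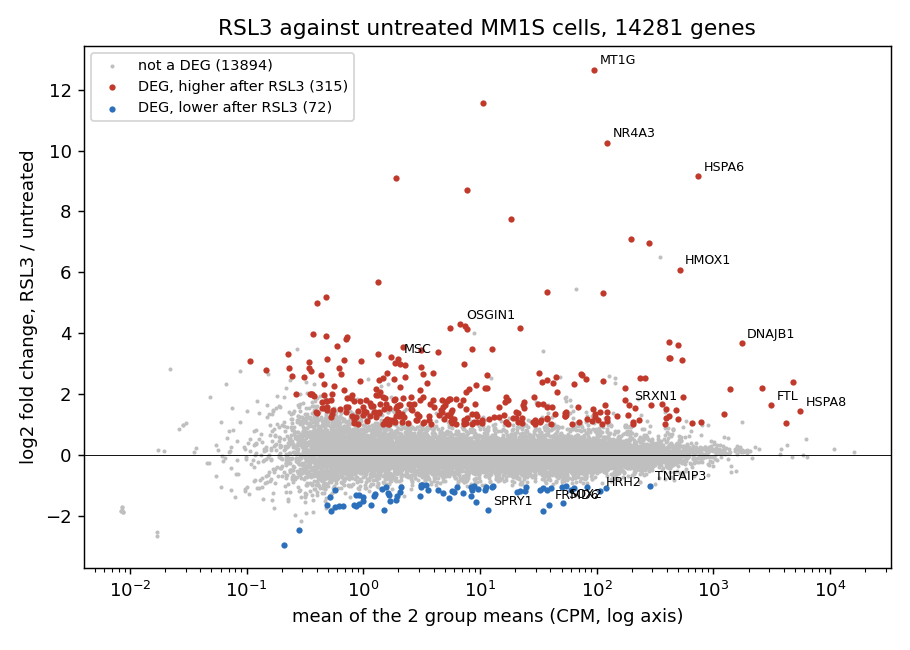
Each point is 1 of 14281 tested genes, with the mean of the 2 group means in CPM on a log axis and the fitted log2 fold change of RSL3 over untreated on the vertical axis. DEGs higher after RSL3 are red (315) and DEGs lower after RSL3 are blue (72); the rises reach beyond 12 on the log2 scale at MT1G and extend to abundant genes such as HSPA8 and FTL, while the falls stay above -3.

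The groups did not overlap for 322 of the 387 DEGs, which follows in part from how they were chosen, a condition met by 3560 of all tested genes (24.9%), and 383 DEGs had the same sign in all 3 passages, as did 52.3% of all tested genes. The size of the response differed between passages. The median log2 ratio of RSL3 over untreated within a passage was 2.35, 1.06 and 0.95 for the DEGs that rose and -1.85, -0.94 and -0.76 for those that fell. Passage 16 gave the largest of the 3 ratios in size for 276 of the 315 rises and 61 of the 72 falls, and for 9029 of all 14281 genes. Without the RSL3 library of passage 16, 123 genes were higher and 19 lower, and 128 of the 387 DEGs were called again. All 387 kept their direction, with medians of 1.18 and -0.95. Since 383 had the same sign in all 3 passages, the kept direction follows largely from how the DEGs were chosen. Without the untreated library of passage 16, 68 genes were higher and 11 lower, with medians of 1.28 and -1.01 over the 387 DEGs. A set of 68 DEGs, 60 higher and 8 lower, was called whichever of the 6 libraries was left out, and a DEG named below that is not said to belong to this set lost its call in at least 1 of these 6 fits.

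Metallothioneins, small cysteine-rich proteins that bind zinc and copper, had the highest median rise of the gene lists examined. All 6 metallothionein genes that could be tested were DEGs, of 11 in the list. Of these 6, 4 had 3 counts or fewer in each untreated library and passed the filter for low counts only through other libraries. The count of 6 and the median thus follow in part from that filter. The median log2 fold change of the 6 genes was 8.42, or 7.10 with those 4 set to a lower bound. It was 5.31 without the RSL3 library of passage 16 and 5.63 without the untreated one. They lie together on chromosome 16 of hg19, from MT2A at 56642496 to 56643409 over MT1E at 56659387 to 56661024, MT1F at 56691643 to 56694610, MT1G at 56700642 to 56701977 and MT1H at 56703726 to 56705041 to MT1X at 56716382 to 56718108. MT2A was at 1.66, 0.993 and 1.41 CPM in untreated cells and at 1101, 56.2 and 22.2 CPM after RSL3 (log2 fold change 7.09, SE 1.40, FDR = 0.00847). MT1X was at 1.81, 1.57 and 2.11 CPM without treatment and at 1575, 72.6 and 28.4 CPM after RSL3 (log2 fold change 6.98, SE 1.39, FDR = 0.00866). In both these genes the untreated libraries lay close together, and every RSL3 library lay far above them, highest at passage 16 and lowest at passage 23.

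MT1G was nearly absent from untreated cells, with 0, 0 and 0.0502 CPM, and reached 537, 20.6 and 9.55 CPM after RSL3, which is at least 10.26 higher on the log2 scale when the untreated level is set to the floor of 3 counts per library. The corresponding bounds were 7.89 for MT1F, 7.12 for MT1H and 4.62 for MT1E, whose RSL3 values were 11.2, 0.107 and 0.0534 CPM and thus came almost wholly from passage 16. Without the RSL3 library of passage 16 the bounds were 6.61 for MT1G, 5.29 for MT1F and 3.64 for MT1H, and MT1E stayed under the floor. MT1F, MT1G and MT1H were called whichever library was left out. MT2A and MT1X lost the call without the untreated library of passage 16, and MT1E also without the RSL3 library of that passage. Metallothionein genes are close copies of each other, and how the counting divided reads among them was not tested.

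Other zinc genes moved less. SLC30A1, the zinc exporter of the plasma membrane, was at 299.8, 269.8 and 275 CPM in untreated cells and 1310.0, 312 and 254 CPM after RSL3, high at passage 16 and overlapping otherwise (log2 fold change 0.84, SE 0.42, FDR = 0.191). SLC39A10, a zinc importer, fell from 47.8, 42.6 and 44.2 CPM to 15.4, 19.6 and 25 CPM, with no overlap (log2 fold change -1.17, SE 0.17, FDR = 0.00178), and with -0.95, FDR = 0.00287 without the RSL3 library of passage 16, under the fold limit. MTF1, the metal sensor itself, was at 37.9, 39 and 43.9 CPM and 37.9, 36.7 and 39.6 CPM (FDR = 0.694).

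The promoters of 3 of the 6 genes, MT2A, MT1X and MT1H, were given in the RefSeq table for GRCh38.p14, a later build than the hg19 of the counts. The 250 bases upstream of the start of MT2A (chr16:56608334-56608583, plus strand) and of MT1H (chr16:56669564-56669813, plus strand) are shown because these genes rose together and carry many copies of the metal response element core, written in capitals. The core was searched as TGCACNC or TGCGCNC on both strands.
MT2A: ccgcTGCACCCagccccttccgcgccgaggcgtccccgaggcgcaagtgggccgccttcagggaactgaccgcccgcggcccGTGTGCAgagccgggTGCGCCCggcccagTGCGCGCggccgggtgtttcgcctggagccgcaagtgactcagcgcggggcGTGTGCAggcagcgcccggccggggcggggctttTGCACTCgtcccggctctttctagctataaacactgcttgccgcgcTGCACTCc
MT1H: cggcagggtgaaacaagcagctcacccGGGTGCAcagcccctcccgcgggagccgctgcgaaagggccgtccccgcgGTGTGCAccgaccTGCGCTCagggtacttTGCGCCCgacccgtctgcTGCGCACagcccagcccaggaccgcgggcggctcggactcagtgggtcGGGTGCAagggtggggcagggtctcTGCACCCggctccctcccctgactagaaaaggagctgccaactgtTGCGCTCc
The MT2A window held 7 matches, the MT1H window 8 and the MT1X window 4. Single matches are common, since 24.7% of 27305 RefSeq promoter windows of the same length hold at least 1, as do 33% of the 10502 windows of tested genes and 27.6% of the 210 windows of DEGs that rose. A match describes the sequence and is not evidence of binding.

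Heat shock proteins and co-chaperones held the largest number of rising DEGs of any list. Of 43 tested members, 15 were DEGs higher after RSL3 and 6 more passed the FDR with a smaller rise, and no member passed in the other direction. The median log2 fold change was 0.41, against 0.00 for all tested genes, and 42 of the 43 had their largest ratio in size at passage 16. The median of the 15 DEGs was 2.19, and it was 1.29 without the RSL3 library of passage 16 and 1.60 without the untreated one. HSPA6, a strictly stress-inducible HSP70, rose from 0.984, 1.04 and 0.903 CPM to 4321, 64.5 and 82.8 CPM (log2 fold change 9.15, SE 1.33, FDR = 0.00169). Its untreated values were almost identical, and its RSL3 values spanned a wide range with passage 16 far above the others. Without the RSL3 library of passage 16 the log2 fold change was 6.80, FDR = 0.000192. HSPA7, which is annotated as a pseudogene and closely resembles HSPA6, rose alongside it to 45.2, 0.479 and 0.694 CPM, which is at least 6.65 over the floor on the log2 scale, or 1.93 without the RSL3 library of passage 16. Reads of these copies may not be separable.

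HSPA1A and HSPA1B, the main inducible HSP70 genes, are spread over 10 entries of the table with numbered symbols. Summed over these entries they were at 6.32, 7.21 and 4.46 CPM in untreated cells and at 732, 93.4 and 104 CPM after RSL3. The entries HSPA1B_1, HSPA1B_2 and HSPA1B_4 were DEGs (log2 fold changes 5.35, 5.31 and 4.25), called whichever library was left out. They are not counted in the list above. HSPA8, the constitutive HSP70, was at 2899, 2962 and 2932 CPM in untreated cells and at 12455, 6172 and 5964 CPM after RSL3 (log2 fold change 1.43, SE 0.22, FDR = 0.00211). The untreated values of HSPA8 agreed closely, and even the 2 lower RSL3 libraries stood at about the same distance above them. DNAJB1, the HSP40 partner of HSP70, rose from 184, 191 and 147 CPM to 7939, 928 and 1068 CPM (log2 fold change 3.67, SE 0.61, FDR = 0.00323). BAG3, a nucleotide exchange factor that links HSP70 to autophagy, rose from 59.2, 65.4 and 55.1 CPM to 1801, 283 and 255 CPM (log2 fold change 3.18, SE 0.56, FDR = 0.00441). HSPA8, DNAJB1 and BAG3 share one pattern, with close untreated libraries, moderate rises at passages 22 and 23, and a large rise at passage 16.

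HSP90AA1, the inducible cytosolic HSP90, rose from 671, 705 and 816 CPM to 10029, 1733 and 1780.1 CPM (log2 fold change 2.19, SE 0.50, FDR = 0.0151), and HSP90AB1, the constitutive form, from 2214, 2602 and 2973 CPM to 9894, 3710.0 and 3910.5 CPM (log2 fold change 1.06, SE 0.29, FDR = 0.0311). HSPB1, the small heat shock protein HSP27, was at 21.6, 24 and 22.1 CPM and 529.6, 49.9 and 38.6 CPM (log2 fold change 2.42, SE 0.73, FDR = 0.0458). Its call was among those that depended on passage 16, with 0.95, FDR = 0.176 when that RSL3 library was left out. HSP90AB1, HSPH1, DNAJA1, DNAJA4, DNAJB4 and HSPA13 also lost the call when either library of passage 16 was left out, and HSP90AA1 without the untreated one. HSPA6, HSPA8, DNAJB1, DNAJB2, BAG3, SERPINH1 and CHORDC1 were the 7 of the list that kept the call whichever library was left out. HSF1, the factor that drives these genes, was at 4.82, 5.54 and 6.27 CPM and 6.38, 5.22 and 6.94 CPM (FDR = 0.625), and HSF2 at 35.6, 34.9 and 41.5 CPM and 27.8, 31.8 and 33.1 CPM (FDR = 0.0531).

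The heat shock element was searched as GAANNTTCNNGAA on both strands in the same RefSeq windows. It is rare, in 0.439% of all 27305 windows, in 0.305% of those of tested genes and in 1.9% of the 210 windows of rising DEGs, and 4 of the 15 heat shock DEGs held it, namely HSPA6, HSPA8, CHORDC1 and SERPINH1. Of the 25 tested members of the list with a window that were not DEGs, DNAJB6 held it. HSPA6 (chr1:161524290-161524539, plus strand) and HSPA8 (chr11:123062137-123062386, minus strand) are shown with the element in capitals.
HSPA6: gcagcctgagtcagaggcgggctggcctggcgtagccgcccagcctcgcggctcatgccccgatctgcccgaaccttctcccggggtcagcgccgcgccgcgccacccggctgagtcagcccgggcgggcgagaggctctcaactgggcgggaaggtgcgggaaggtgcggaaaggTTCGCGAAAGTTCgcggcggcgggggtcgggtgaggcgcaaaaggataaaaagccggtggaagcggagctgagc
HSPA8: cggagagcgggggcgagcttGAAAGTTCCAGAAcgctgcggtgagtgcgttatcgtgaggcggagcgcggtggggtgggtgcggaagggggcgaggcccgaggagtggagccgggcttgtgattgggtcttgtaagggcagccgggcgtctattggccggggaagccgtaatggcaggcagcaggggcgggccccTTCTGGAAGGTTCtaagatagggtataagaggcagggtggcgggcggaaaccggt
The match in HSPA6 starts 74 bases before the gene start, and those in HSPA8 start 230 and 55 bases before it. The HSPA6 window also holds an antioxidant response element core, which is not marked.

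Other genes of protein turnover rose to different extents. UBB, which encodes a ubiquitin precursor, was at 497, 480.3 and 456 CPM and 1052, 624 and 607 CPM and passed the FDR with a smaller rise (log2 fold change 0.63, SE 0.12, FDR = 0.00776). ZFAND2A, an arsenite-inducible protein that associates with the proteasome, rose from 16, 12.9 and 16.1 CPM to 323, 43.6 and 40 CPM (log2 fold change 2.64, SE 0.53, FDR = 0.0094), and ZFAND5, a proteasome activator, from 200.4, 238 and 256 CPM to 811, 432 and 413 CPM (log2 fold change 1.22, SE 0.23, FDR = 0.00652). The log2 fold change was 1.57, FDR = 0.00566 for ZFAND2A and 0.79, FDR = 0.00679 for ZFAND5 without the RSL3 library of passage 16, and both calls were lost without the untreated one. Of 29 proteasome subunits tested, 0 were DEGs, but 12 passed the FDR and all 12 were higher, with medians of 0.22 over the 13 subunits of the 20S core and 0.20 over the 16 of the 19S cap. PSMD12, at 98.3, 107 and 115 CPM and 157, 152 and 139 CPM, had the largest of these changes (log2 fold change 0.49, SE 0.08, FDR = 0.00252). SQSTM1, the autophagy receptor p62, is also a DEG (log2 fold change 2.64, SE 0.64, FDR = 0.0197) but has more than 1 entry in the table, and at 0.207, 0.0522 and 0.0502 CPM in untreated cells and 1.97, 0.107 and 0.213 CPM after RSL3 the groups of this entry overlapped and its level is uncertain.

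**Figure D2:**
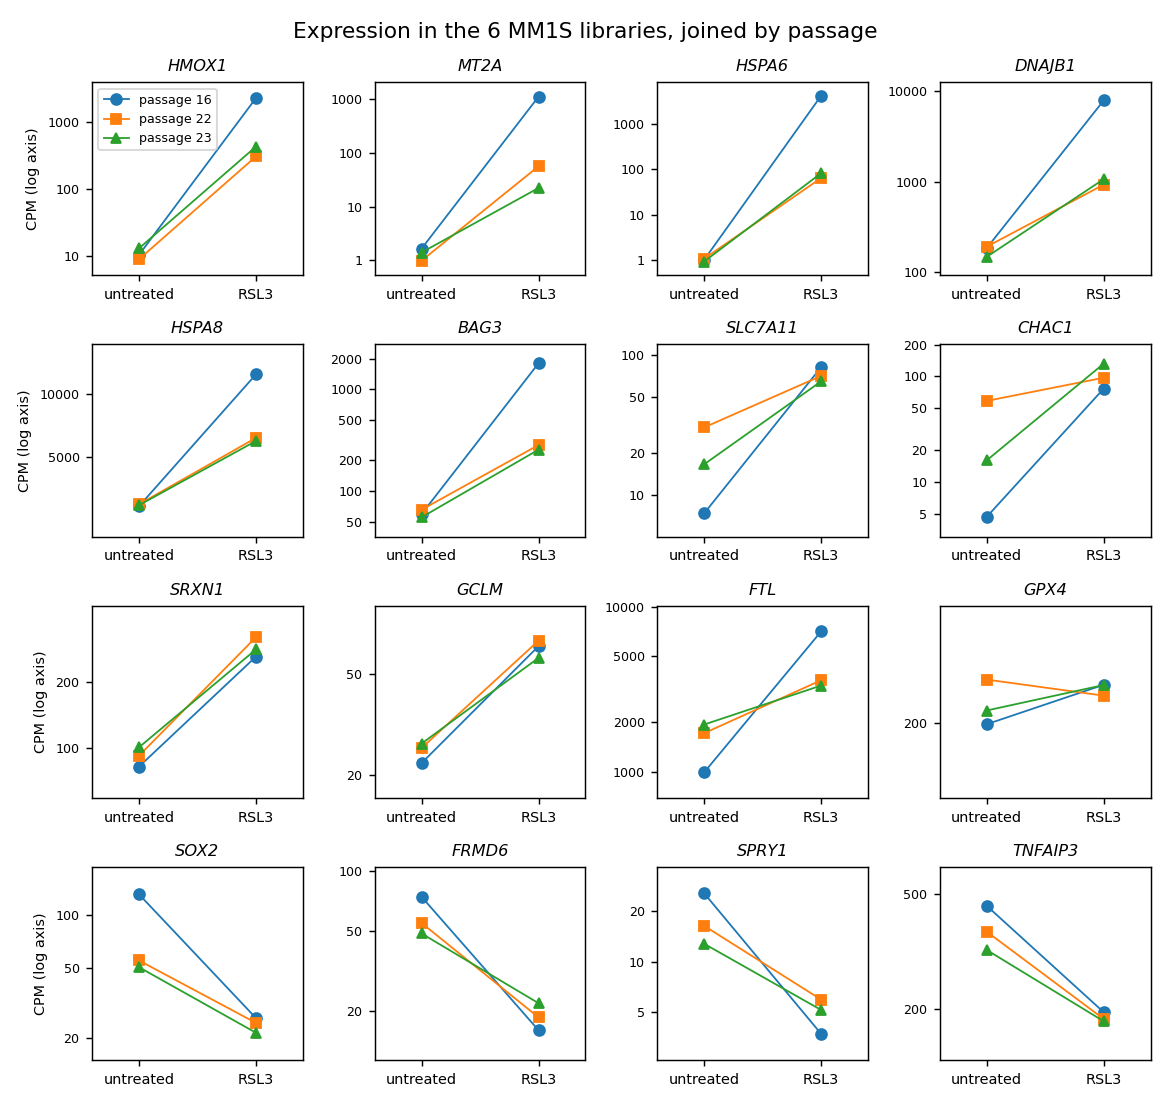
CPM on log axes for 16 genes in the 6 MM1S libraries, with lines joining the untreated and the RSL3 library of a passage. HMOX1, MT2A, HSPA6 and DNAJB1 rose most at passage 16, SRXN1 and GCLM rose in parallel in all passages, the passages of SLC7A11 and CHAC1 differed most before treatment, GPX4 did not separate the groups, and the 4 genes of the last row fell in each passage.

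Of 30 tested NRF2 targets and regulators, 8 were DEGs higher after RSL3, 8 more passed the FDR, all higher, and 14 did not pass. The median log2 fold change was 0.45, and the median ratios of the list were 0.39, 0.46 and 0.41 at the 3 passages, although single members differed between passages. Of the 8 DEGs, the 7 other than BACH1 (SRXN1, GCLM, OSGIN1, NQO1, SLC7A11, SLC3A2 and AKR1C3) were called whichever library was left out, and the median of the 8 was 1.52, or 1.27 without the RSL3 library of passage 16. SRXN1, which repairs oxidized peroxiredoxins, rose from 82.5, 92.5 and 101 CPM to 261, 319 and 281 CPM (log2 fold change 1.64, SE 0.12, FDR = 1.22e-05). GCLM, the modifier subunit of the enzyme that starts glutathione synthesis, rose from 22.3, 25.6 and 26.7 CPM to 64.4, 67.7 and 57.9 CPM (log2 fold change 1.35, SE 0.10, FDR = 1.62e-05). In both genes the lowest RSL3 library stood at more than 2 times the highest untreated one, and their passage ratios were 1.66, 1.79 and 1.47 and 1.52, 1.40 and 1.12 on the log2 scale. OSGIN1, an oxidative stress-induced growth inhibitor, rose from 0.881, 0.522 and 0.452 CPM to 23, 9.43 and 6.46 CPM (log2 fold change 4.28, SE 0.33, FDR = 1.62e-05), and NQO1, a quinone reductase, from 12.7, 12.8 and 15.9 CPM to 35.7, 28.7 and 32.4 CPM (log2 fold change 1.22, SE 0.18, FDR = 0.00186).

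Cystine import rose from uneven baselines. SLC7A11, the cystine and glutamate exchanger that supplies cysteine for glutathione, was at 7.36, 30.4 and 16.5 CPM in untreated cells and at 82, 71 and 64.9 CPM after RSL3 (log2 fold change 2.08, SE 0.36, FDR = 0.00431). Its untreated libraries differed several-fold, with passage 22 highest, while its RSL3 libraries were close together. SLC3A2, the heavy chain of the same exchanger, rose from 99.1, 246 and 170.3 CPM to 801, 461 and 402 CPM (log2 fold change 1.68, SE 0.29, FDR = 0.00375). The antisense gene SLC7A11-AS1 overlaps SLC7A11 on the other strand and was also a DEG, and since the use of strand in counting is not given, their reads cannot be told apart. TXNRD1 (thioredoxin reductase, log2 fold change 0.87, SE 0.09, FDR = 0.000184) and GCLC (the catalytic partner of GCLM, log2 fold change 0.71, SE 0.08, FDR = 0.000492) passed the FDR with rises under 2-fold. BACH1, a repressor of NRF2 target genes, rose from 59.1, 68.6 and 66.5 CPM to 278, 128 and 132 CPM (log2 fold change 1.40, SE 0.26, FDR = 0.00654), a call lost when either library of passage 16 was left out. NFE2L2, which encodes NRF2, was at 90.2, 113 and 93.3 CPM and 175, 132 and 134 CPM (log2 fold change 0.57, SE 0.13, FDR = 0.0173).

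The promoter of GCLM (chr1:93909431-93909680, minus strand) is shown because GCLM had one of the most even responses. The antioxidant response element core, searched as TGACNNNGC on both strands, is in capitals.
GCLM: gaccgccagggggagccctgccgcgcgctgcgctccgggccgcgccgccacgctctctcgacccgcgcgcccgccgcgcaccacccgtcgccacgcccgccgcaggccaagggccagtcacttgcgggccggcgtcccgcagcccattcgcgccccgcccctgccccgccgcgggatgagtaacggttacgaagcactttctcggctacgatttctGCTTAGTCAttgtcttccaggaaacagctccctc
The core starts 34 bases before the gene start. It occurs in 11% of all windows, in 12.5% of those of tested genes and in 17.1% of the 210 windows of rising DEGs. Among the 7 NRF2 DEGs with a window GCLM and SLC3A2 held it, and so did 5 of the 15 tested members of the list that were not DEGs.

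Of 23 tested genes of iron and heme, HMOX1 and FTL were DEGs, both higher, 2 more passed the FDR with higher and 2 with lower values, and the median log2 fold change was -0.07. HMOX1, heme oxygenase 1, was at 10.6, 9.09 and 13.2 CPM in untreated cells and 2298, 310.2 and 434 CPM after RSL3 (log2 fold change 6.09, SE 0.61, FDR = 0.000247). Every RSL3 library exceeded every untreated one by more than 20-fold, and the call held in all leave-one-out fits, with 5.11, FDR = 1.41e-05 without the RSL3 library of passage 16. FTL, ferritin light chain, rose from 991, 1713 and 1933 CPM to 7095, 3589.5 and 3333 CPM (log2 fold change 1.64, SE 0.34, FDR = 0.0101), with 0.93, FDR = 0.0035 without that library and thus under the fold limit. FTH1, ferritin heavy chain, was at 63.8, 61.7 and 49.8 CPM and 149, 77.2 and 62.3 CPM (log2 fold change 0.66, SE 0.19, FDR = 0.0424), and reads of FTH1 may be shared with its pseudogenes. TFRC, the transferrin receptor, was at 405, 388 and 446 CPM without treatment and 361, 141 and 155 CPM with RSL3, and although all RSL3 values lay below all untreated ones, the difference was small at passage 16 and large at passages 22 and 23 (log2 fold change -0.95, SE 0.41, FDR = 0.134). Of 17 tested genes of iron transport, iron sensing and heme synthesis, 0 were DEGs, and 2 passed the FDR with lower values.

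GPX4, the enzyme that RSL3 inhibits, was at 199, 235 and 209 CPM in untreated cells and 230.1, 221 and 229.9 CPM after RSL3 (log2 fold change 0.09, SE 0.11, FDR = 0.625). The groups overlapped. Among 23 tested genes of ferroptosis defence and lipid peroxidation, PSTK, a kinase of selenocysteine synthesis, was the only DEG (log2 fold change 1.11, SE 0.24, FDR = 0.0133), with 0.68, FDR = 0.0539 without the RSL3 library of passage 16. AIFM2, which encodes the ubiquinone reductase FSP1, passed the FDR with a smaller rise, from 31.3, 44.6 and 48.8 CPM to 61.2, 83.3 and 78.3 CPM (log2 fold change 0.85, SE 0.08, FDR = 0.000112). ACSL4, which loads polyunsaturated fatty acids into phospholipids, was lower, from 72.9, 84.6 and 88.2 CPM to 54.2, 60.7 and 60.7 CPM (log2 fold change -0.48, SE 0.09, FDR = 0.00516). PTGS2, a cyclooxygenase gene used as a marker of ferroptosis, was at 0.0518, 0.784 and 0.552 CPM and 50.1, 1.39 and 0.64 CPM, high in the passage 16 library alone (log2 fold change 3.99, SE 1.34, FDR = 0.0646). The polyamine enzyme gene SAT1 had the same shape, at 14.8, 27.8 and 26.6 CPM and 722, 39.4 and 34.5 CPM (log2 fold change 2.53, SE 1.02, FDR = 0.113). Both were called higher in the fit without the block (5.20, FDR = 0.0415 and 3.52, FDR = 0.0402).

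**Figure D3:**
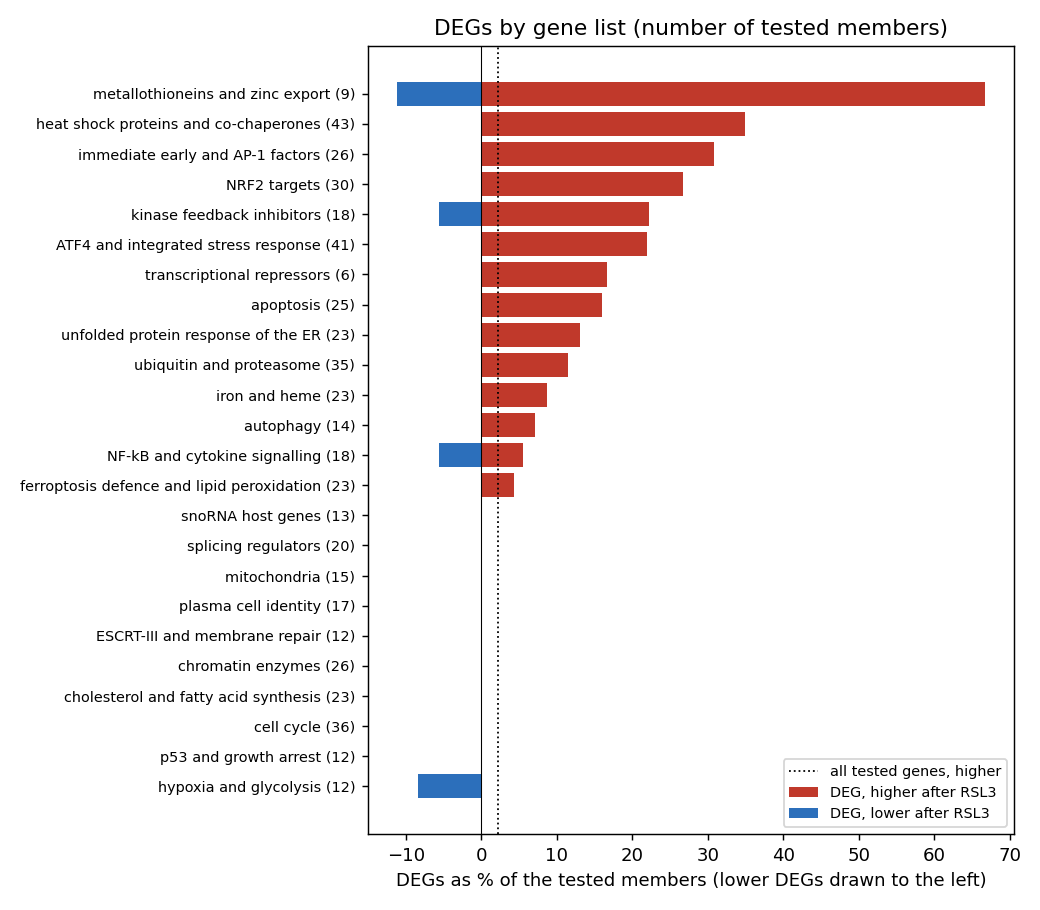
For each of 24 gene lists, the share of tested members that were DEGs higher after RSL3 (red, to the right) or lower (blue, to the left), with the number of tested members in parentheses. The dotted line is the share of higher DEGs among all tested genes, 2.21%. The metallothionein and zinc list reaches 66.7%, in part through the filter for low counts. Heat shock genes reach 34.9% and the NRF2 list 26.7%, and 9 lists hold no DEG.

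Of 41 tested genes of the ATF4 stress response, 9 were DEGs higher after RSL3, 16 more passed the FDR in the same direction, 0 passed in the other and 16 did not pass. The median log2 fold change was 0.59. That of the 9 DEGs was 2.34, or 1.42 without the RSL3 library of passage 16 and 1.75 without the untreated one. ATF4 itself was at 435, 865 and 549 CPM and 1437, 1058 and 1021 CPM (log2 fold change 0.97, SE 0.18, FDR = 0.00664). ATF3, a stress-induced partner factor, rose from 23.5, 71.7 and 43.5 CPM to 1858, 255 and 240.1 CPM (log2 fold change 3.71, SE 0.88, FDR = 0.018). DDIT3, which encodes the pro-apoptotic factor CHOP, rose from 7.62, 15.7 and 9.54 CPM to 101, 47 and 42.3 CPM (log2 fold change 2.47, SE 0.36, FDR = 0.00169). The untreated library of passage 22 was the highest untreated one for ATF4, ATF3 and DDIT3.

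CHAC1, which degrades glutathione, was at 4.66, 58.7 and 16 CPM in untreated cells and 76.7, 97.3 and 132 CPM after RSL3 (log2 fold change 2.34, SE 0.49, FDR = 0.0107). The RSL3 libraries of CHAC1 differed less from each other than the untreated ones did, and its call was lost without the block (1.95, FDR = 0.0575) and without the untreated library of passage 16. Its promoter (chr15:40953221-40953470, plus strand) is shown with a C/EBP-ATF composite site, searched as TGATGNAA on both strands, in capitals.
CHAC1: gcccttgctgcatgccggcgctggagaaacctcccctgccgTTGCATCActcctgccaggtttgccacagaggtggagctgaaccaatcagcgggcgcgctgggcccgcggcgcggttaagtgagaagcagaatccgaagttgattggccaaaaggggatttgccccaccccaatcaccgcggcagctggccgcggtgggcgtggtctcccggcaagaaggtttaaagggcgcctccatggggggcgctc
This match starts 209 bases before the gene start. It occurs in 3.19% of all windows, in 1.51% of those of tested genes and in 3.81% of the 210 windows of rising DEGs. Of the 9 DEGs of the ATF4 list ATF3 and CHAC1 held it, and of its 16 tested members with a window that were not DEGs PPP1R15B and ASNS did.

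DDIT4, an inhibitor of mTORC1, rose from 9.01, 14.5 and 8.63 CPM to 172, 31 and 33 CPM (log2 fold change 2.55, SE 0.47, FDR = 0.0062), and PPP1R15A, which restores translation by opposing the eIF2α kinases, from 37.6, 82.6 and 61.4 CPM to 1024, 191 and 157 CPM (log2 fold change 2.54, SE 0.66, FDR = 0.0268). DDIT3 and CEBPB, which encodes a partner of ATF4 and CHOP, were the 2 of the 9 DEGs called whichever library was left out. The aminoacyl-tRNA synthetases, 12 tested, had 0 DEGs and 5 that passed the FDR, all higher.

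The unfolded protein response of the ER was moderate. Of 23 tested members 3 were DEGs, and all 3 lost the call when either library of passage 16 was left out, with a median of 1.33 that was 0.80 without the RSL3 library. HERPUD1, part of the ER degradation machinery, rose from 571, 782 and 630.0 CPM to 3224, 1181 and 1058 CPM (log2 fold change 1.33, SE 0.30, FDR = 0.0153). EIF2AK3, the ER stress kinase PERK, rose from 82.5, 113 and 109.9 CPM to 589.6, 208 and 175 CPM (log2 fold change 1.54, SE 0.39, FDR = 0.0228), though it overlaps EIF2AK3-DT on the other strand. HSPA5, the ER chaperone BiP, passed the FDR with a smaller rise, from 1054, 1137 and 1041 CPM to 1933, 1506 and 1344 CPM (log2 fold change 0.56, SE 0.10, FDR = 0.00622). XBP1, which drives the secretory programme of plasma cells, was at 1169, 1305 and 1251 CPM and 1348, 1246 and 1250.4 CPM (FDR = 0.797).

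Of 26 tested immediate early genes, which respond to signalling within minutes, 8 were DEGs, all higher, 2 passed the FDR with lower values and 16 did not pass. The median log2 fold change was 1.32, and the median ratios of the list were 2.64, 0.34 and 0.22 at the 3 passages. NR4A3, an orphan nuclear receptor, was at 0.0518, 0 and 0.251 CPM in untreated cells and 733, 2.18 and 0.907 CPM after RSL3 (log2 fold change 10.25, SE 2.35, FDR = 0.0157). Without the RSL3 library of passage 16 its log2 fold change was 3.62, FDR = 0.206. NR4A1 was at 1.04, 2.77 and 1.71 CPM and 2073, 15.7 and 11.4 CPM (log2 fold change 6.49, SE 2.05, FDR = 0.052), and NR4A2 at 0.725, 1.15 and 0.954 CPM and 391, 2.34 and 1.92 CPM (log2 fold change 5.44, SE 1.70, FDR = 0.0508). Neither of these 2 receptors was a DEG with the block and both were without it (8.57, FDR = 0.0236 and 7.11, FDR = 0.0392). In all 3 genes the groups did not overlap, and the RSL3 libraries of passages 22 and 23 lay far closer to the untreated ones than that of passage 16.

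JUN, a subunit of AP-1, rose from 39.1, 77.1 and 52.1 CPM to 1963, 198 and 239 CPM (log2 fold change 3.19, SE 0.79, FDR = 0.0214), whereas FOS was at 21.1, 25.1 and 4.22 CPM and 129, 14.8 and 2.19 CPM, higher after RSL3 at passage 16 with lower values at passages 22 and 23 (FDR = 0.61). EGR1 was at 1.19, 5.9 and 1.05 CPM and 2.76, 1.44 and 0.373 CPM, overlapping (FDR = 0.452). Of 9 Kruppel-like factors, KLF2, KLF4, KLF5, KLF6 and KLF9 were DEGs higher after RSL3, and KLF13 and KLF16 passed the FDR with lower values. KLF2, a factor that restrains lymphocyte activation, rose from 34.8, 76 and 71.2 CPM to 879, 188 and 169 CPM (log2 fold change 2.52, SE 0.69, FDR = 0.0313), and KLF6 from 177, 200.1 and 177 CPM to 1132, 340.4 and 338 CPM (log2 fold change 1.50, SE 0.41, FDR = 0.0325). None of these 5 kept the call when either library of passage 16 was left out, and the median of the 8 DEGs of the list was 2.05, or 1.15 without the RSL3 library and 1.43 without the untreated one. KLF13 fell from 71, 68.4 and 68.3 CPM to 38.6, 41.5 and 43.2 CPM (log2 fold change -0.76, SE 0.09, FDR = 0.000518), evenly over the passages.

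**Figure D4:**
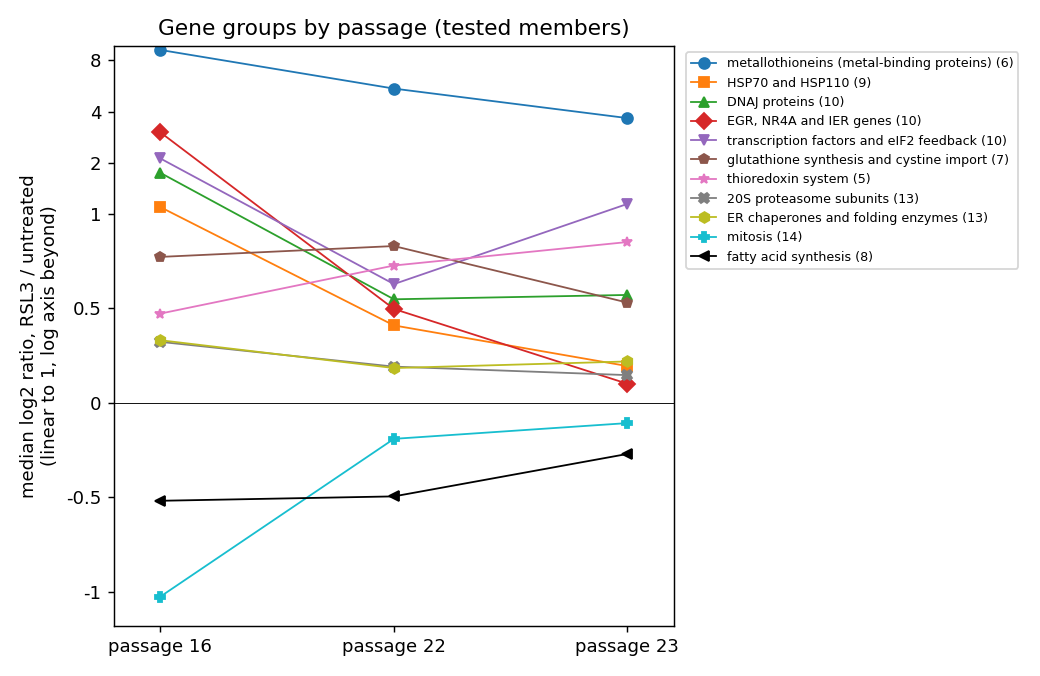
Median within-passage log2 ratio of RSL3 over untreated for 11 gene groups, on an axis that is linear to 1 in size and logarithmic beyond, with the number of tested members in parentheses. Most groups lie farthest from 0 at passage 16, where the median of the EGR, NR4A and IER genes was 3.02 against 0.50 and 0.10 at the later passages, while glutathione synthesis and the thioredoxin system stayed between 0.47 and 0.85 throughout.

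Genes that regulate kinase signalling moved in both directions. GADD45A, a stress sensor that binds MAP kinase kinase kinases, rose from 27.4, 30.2 and 31.7 CPM to 92.9, 73.4 and 69.7 CPM (log2 fold change 1.40, SE 0.13, FDR = 0.000151), and GADD45G from 0.881, 1.2 and 1.1 CPM to 9.33, 5.81 and 2.61 CPM (log2 fold change 2.37, SE 0.32, FDR = 0.00126), and both calls held in every leave-one-out fit. SPRY1, an inhibitor of receptor tyrosine kinase signalling, fell from 25.7, 16.4 and 12.8 CPM to 3.68, 5.91 and 5.12 CPM (log2 fold change -1.82, SE 0.26, FDR = 0.00163), while its relative SPRY4 and the EGFR inhibitor ERRFI1 were DEGs in the other direction (log2 fold changes 1.52 and 1.69). The calls of SPRY4 and ERRFI1 were lost when either library of passage 16 was left out. Of 9 dual specificity phosphatases tested, 0 were DEGs and 1 passed the FDR. Among 18 NF-kB and cytokine genes, TNFAIP3, the deubiquitinase A20, fell from 456, 371 and 320.2 CPM to 195, 184 and 181 CPM (log2 fold change -1.02, SE 0.13, FDR = 0.00066), and NFKBIZ, an atypical IκB protein, rose from 6.11, 6.22 and 6.37 CPM to 26.1, 8.79 and 8.96 CPM (log2 fold change 1.06, SE 0.28, FDR = 0.0294). The call of TNFAIP3 was close to the fold limit, with -0.92, FDR = 0.00156 without the RSL3 library of passage 16, and that of NFKBIZ was lost when either library of passage 16 was left out.

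Within the BCL2 family, 4 of 14 tested genes were DEGs, and all 4 encode BH3-only proteins that promote apoptosis. BBC3, which encodes PUMA, rose from 11.1, 16.7 and 12 CPM to 90.8, 35.9 and 21.1 CPM (log2 fold change 1.67, SE 0.39, FDR = 0.0173). PMAIP1, which encodes NOXA, rose from 11.1, 28.2 and 16.2 CPM to 90.4, 39 and 38.1 CPM (log2 fold change 1.58, SE 0.37, FDR = 0.0173), and BCL2L11, which encodes BIM, from 246, 201 and 201 CPM to 1216, 332 and 295 CPM (log2 fold change 1.28, SE 0.38, FDR = 0.0416). HRK, at 1.24, 0.888 and 0.652 CPM and 3.61, 1.39 and 1.01 CPM, was the fourth (log2 fold change 1.01, SE 0.30, FDR = 0.0403). None of the 4 kept the call when either library of passage 16 was left out, with a median of 1.43 that was 0.81 without the RSL3 library and 1.03 without the untreated one. MCL1, the survival protein on which myeloma cells often depend, was at 573, 599 and 515 CPM and 1892, 609 and 516 CPM, high at passage 16 alone (FDR = 0.141).

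Of 36 cell cycle genes tested, 0 were DEGs and 7 passed the FDR, all lower, with a median log2 fold change of -0.24. All 14 mitotic genes had a negative log2 fold change, while it was above 0 for 7180 of all 14281 tested genes. The median ratios of these mitotic genes were -1.06, -0.19 and -0.11 at the 3 passages. For all 14 the ratio was largest in size at passage 16. MKI67 was at 663, 829 and 966 CPM in untreated cells and 243, 652 and 754 CPM after RSL3 (log2 fold change -0.69, SE 0.20, FDR = 0.0405), and TOP2A at 413, 467 and 531 CPM and 139.8, 333 and 406 CPM (log2 fold change -0.78, SE 0.20, FDR = 0.0228). PLK1, a mitotic kinase, was at 243, 297 and 322 CPM and 47.1, 228 and 262 CPM (FDR = 0.0728). In all 3 genes the difference was large at passage 16 and small at the other passages. Without the RSL3 library of passage 16 the log2 fold change was -0.38, FDR = 0.176 for MKI67 and -0.46, FDR = 0.0575 for TOP2A. MYC was at 579, 604 and 680.2 CPM and 136, 687 and 634 CPM, low at passage 16 alone (FDR = 0.265).

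Of 8 tested genes of fatty acid synthesis, 5 passed the FDR, all lower, and 0 were DEGs. FASN, the fatty acid synthase, fell from 449, 642 and 658 CPM to 226, 388 and 384 CPM (log2 fold change -0.84, SE 0.13, FDR = 0.00231), with nearly equal ratios of -0.99, -0.73 and -0.78 on the log2 scale. SCD, the desaturase that makes monounsaturated fatty acids, fell from 1192, 1933 and 1905 CPM to 775, 1275 and 1403 CPM (log2 fold change -0.56, SE 0.11, FDR = 0.00712) and had the largest loss in CPM of all genes that passed the FDR. Of 15 tested genes of cholesterol synthesis and uptake, 2 passed the FDR, both lower.

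Chromatin enzymes had 0 DEGs of 26 tested, and 6 passed the FDR, all lower. DNMT1, the maintenance DNA methyltransferase, was at 337, 339 and 332 CPM and 213, 275 and 274 CPM (log2 fold change -0.41, SE 0.10, FDR = 0.0216). KDM6B, a histone H3 lysine demethylase, was at 12.6, 13.3 and 10.8 CPM and 63.4, 17 and 8.59 CPM (log2 fold change 0.93, SE 0.42, FDR = 0.15), and the pioneer factor FOXA1 at 12.1, 17.5 and 17.2 CPM and 60.5, 23.3 and 17.1 CPM (log2 fold change 0.99, SE 0.40, FDR = 0.115). Both were high in the RSL3 library of passage 16, and their groups overlapped. Plasma cell genes had 0 DEGs of 17 tested, with SDC1, TNFRSF17 (BCMA) and GPRC5D lower and CD38 higher at FDRs of 0.0136, 0.00709, 0.0168 and 0.0305. The p53 and growth arrest, ESCRT-III, mitochondrial, splicing and snoRNA host gene lists also held 0 DEGs, of 12, 12, 15, 20 and 13 tested. GABARAPL1, which encodes a protein of the autophagosome membrane, was the single DEG of 14 autophagy genes, rising from 19.2, 16.1 and 14 CPM to 279, 61.7 and 53.2 CPM (log2 fold change 2.64, SE 0.32, FDR = 0.000584), a call that held in every leave-one-out fit. The single DEGs of 2 further lists were PFKFB4, a regulator of glycolysis that fell (log2 fold change -1.07, SE 0.20, FDR = 0.00651), and BCL6, a transcriptional repressor that rose (log2 fold change 1.25, SE 0.26, FDR = 0.0106).

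The genes that fell were fewer and fell less. FRMD6, a FERM domain protein of the Hippo pathway, fell from 74.1, 54.9 and 48.6 CPM to 16, 18.6 and 21.9 CPM (log2 fold change -1.64, SE 0.19, FDR = 0.000492). SOX2, a stem cell transcription factor, fell from 130.4, 55.1 and 50.5 CPM to 26, 24.5 and 21.5 CPM (log2 fold change -1.60, SE 0.19, FDR = 0.00052). FAM78A fell from 65.2, 46.8 and 48.1 CPM to 5.52, 18.5 and 22.1 CPM (log2 fold change -1.84, SE 0.34, FDR = 0.00648), the steepest fall of the 3. In each of them the untreated library of passage 16 was the highest of the 6, and the RSL3 values lay in a narrow band or, for FAM78A, were lowest at passage 16. CCR2, a chemokine receptor, fell from 22.5, 10.3 and 9.08 CPM to 5.26, 3.68 and 4.43 CPM (log2 fold change -1.55, SE 0.24, FDR = 0.00214), and ZNF703, a corepressor, from 17.1, 15.9 and 12.9 CPM to 7.62, 7.78 and 5.23 CPM (log2 fold change -1.16, SE 0.17, FDR = 0.00163). These 5 genes, with SPRY1, BCL11A and LOC103344931, were the 8 falling DEGs called whichever library was left out. The largest fitted fall, that of IGSF3 (log2 fold change -2.95, SE 0.81, FDR = 0.0325), rests on less than 1 CPM in every library. KCTD21-AS1 was the other DEG with a fall of more than 4-fold, from 0.881, 0.47 and 0.1 CPM to 0.131, 0.0533 and 0.0534 CPM with overlapping groups (log2 fold change -2.47, SE 0.57, FDR = 0.0159). Among DEGs whose groups did not overlap, further falls from below 3 CPM included those of GRM3, LOC105373283, C11orf42, AVPR2, DCHS1, LOC101929536 and PDZRN4. Their log2 fold changes were -1.70, -1.69, -1.68, -1.67, -1.65, -1.64 and -1.63.

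The rising DEGs held 1.51, 1.77 and 1.74% of the CPM of tested genes in untreated cells and 10.8, 3.61 and 3.39% after RSL3. They were chosen for being higher after RSL3, so a larger share follows from that choice. Large gains in mean CPM were 5266 for HSPA8, 3784 for HSP90AA1, 3242 for HSP90AB1, 3138 for DNAJB1 and 3127 for FTL. NEAT1, the nuclear RNA that scaffolds paraspeckles, gained 1917 CPM, from 425, 432 and 460.0 CPM to 4294, 1487 and 1287 CPM (log2 fold change 2.16, SE 0.28, FDR = 0.000827), and was called whichever library was left out. RHOB, a stress-induced GTPase, rose from 77.6, 81.2 and 70.2 CPM to 2397, 321 and 290.0 CPM (log2 fold change 3.12, SE 0.63, FDR = 0.00958). At the other end, 127 of the 315 rising DEGs had an untreated mean under 1 CPM, and 38 had both means under 1 CPM.

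Rises from almost no expression were found for 22 DEGs with 3 counts or fewer in each untreated library. They passed the filter for low counts only through other libraries, and their rises follow in part from it. Besides the metallothioneins and HSPA7 they included TLR5, the flagellin receptor, at 7.16, 0.266 and 0.427 CPM after RSL3, DIO2, a deiodinase that activates thyroid hormone, at 2.23, 0.266 and 0.32 CPM, and EGR3 at 1.64, 0.266 and 0.427 CPM. Their rises over the floor were at least 4.09, 2.61 and 2.34 on the log2 scale. Without the RSL3 library of passage 16 these bounds were 1.17, 0.93 and 1.17, and TLR5 and EGR3 lost the call (FDR = 0.134 and 0.0898), as all 3 genes did without the untreated library of that passage. AREG, an EGFR ligand, started slightly higher, and rose from 0.725, 1.52 and 1.05 CPM to 122, 4.1 and 2.72 CPM (log2 fold change 4.16, SE 1.21, FDR = 0.0392), with 1.48, FDR = 0.212 when the RSL3 library of passage 16 was left out.

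**Figure D5:**
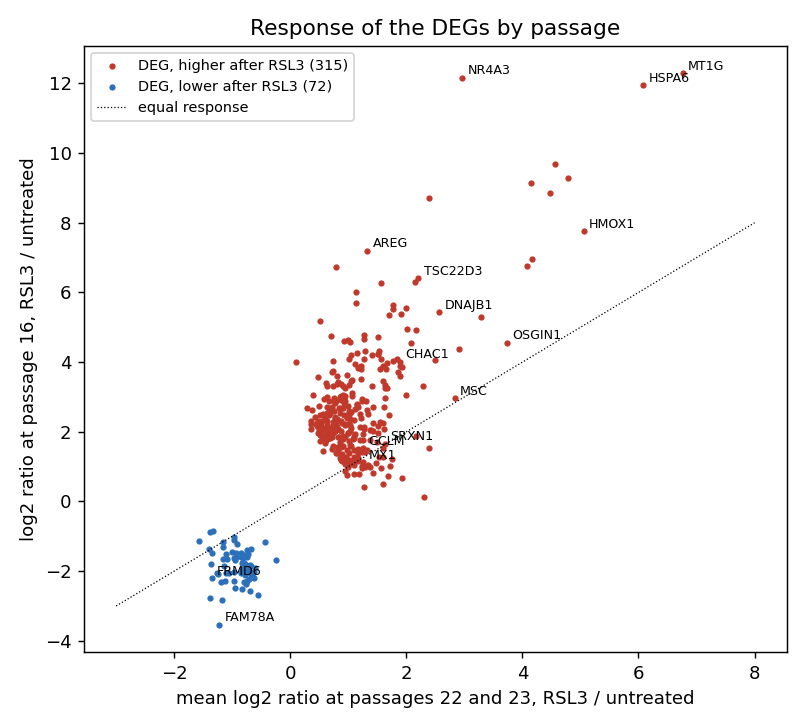
For each of 387 DEGs, the log2 ratio of RSL3 over untreated at passage 16 against the mean of the ratios at passages 22 and 23, with a dotted line where they are equal. Most rising DEGs (red, 315) lie above the line and most falling ones (blue, 72) below it, with NR4A3, AREG and TSC22D3 among those farthest above and SRXN1, MSC, GCLM and MX1 close to it.

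Among 142 DEGs with a mean of at least 10 CPM over the 6 libraries, the 8 widest ranges over passages were those of NR4A3, MT1G, HSPA6, MT1X, AREG, MT1H, MT2A and MT1F. MX1, an interferon-induced GTPase, was among the 8 narrowest, with ratios of 1.13, 1.27 and 1.25, although its untreated levels of 22.9, 7.21 and 5.27 CPM and RSL3 levels of 50.2, 17.5 and 12.7 CPM overlapped and its call held in 1 of 6 leave-one-out fits (log2 fold change 1.22, SE 0.33, FDR = 0.0314). BRF2, a subunit of the RNA polymerase III initiation factor, rose from 6.89, 8.41 and 6.58 CPM to 15.6, 17.1 and 16.4 CPM (log2 fold change 1.17, SE 0.13, FDR = 0.000492). MSC, a basic helix-loop-helix repressor, had the lowest FDR together with SRXN1 and rose from 0.414, 0.418 and 0.351 CPM to 3.94, 4.05 and 2.83 CPM, with ratios of 2.96, 2.98 and 2.68. CBR3, a carbonyl reductase, had ratios of 1.25, 1.20 and 1.15, and AKR1C3, an aldo-keto reductase with close relatives, 1.11, 1.07 and 1.04. BRF2, MSC, CBR3 and AKR1C3 were all called whichever library was left out.

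Of the 387 DEGs, 340 had a position in the hg19 annotation. HMOX1 lies on chromosome 22 at 35776354 to 35790207, HSPA6 on chromosome 1 at 161494330 to 161496684, GCLM on chromosome 1 at 94350755 to 94375012, SRXN1 on chromosome 20 at 627259 to 633844, GPX4 on chromosome 19 at 1103981 to 1106790, SOX2 on chromosome 3 at 181429713 to 181432224 and SPRY1 on chromosome 4 at 124317950 to 124324915. Of the rising DEGs 242 were protein-coding and 20 were long non-coding RNAs, and of the falling ones 61 and 3. Among the 12631 tested genes with a position, 11783 were protein-coding and 591 were long non-coding RNAs. DEG pairs within 10 kb of each other numbered 11, all with the same direction, and 8 of these pairs overlapped, 5 of them on opposite strands. These include BHLHE41 with SSPN and CEBPB with CEBPB-AS1, the latter 2 at 48807367 to 48809205 and 48801135 to 48808035 on chromosome 20, whose reads cannot be told apart without the strand. SSPN was called whichever library was left out. The table holds 4743 entries with numbered symbols, and 12 DEGs have a symbol with more than 1 entry, so that their levels are uncertain.

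The response was not shown to be particular to MM1S. The test of the difference between the RSL3 effects in MM1S and MM1R called 0 of 14281 genes by edgeR at an FDR under 0.05 (0%), where the lowest FDR was 0.193 and 688 unadjusted p-values were under 0.05. Without the block it called 0 as well, with 222 such p-values. No other tool was run for this difference.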

How the data were processed

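RNA-seq of 18 libraries of the established lines MM1S and MM1R was used, 3 per line and treatment. Per the submitters' processing notes, reads were checked with FastQC 0.11.5, aligned with STAR 2.7.3a and analysed with DESeq2, and the build named is hg19. The authors deposited raw counts per gene, and the counting tool, its annotation and its use of strand are not given in the sources used here. A second deposited table of normalized values was not used. Entries with numbered symbols were kept as separate genes.

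Of 43735 genes, 15877 had no reads and 13577 were removed by edgeR's filterByExpr with a minimum count of 10, leaving 14281 that hold 99.9% of counts. Quasi-likelihood fits (edgeR 4.0.16, limma 3.58.1, R 4.3.3) used all 18 libraries, TMM scaling, 1 coefficient per line and treatment, and the passage within each line as a block, with 8 residual degrees of freedom. The study's methods name no block. The labels give the passage of each library, and deviations of libraries of the same passage correlated in all 9 pairs (r from 0.216 to 0.681, median 0.416), so the passages were treated as pairs. Libraries of different passages also correlated between passages 22 and 23 (r from 0.126 to 0.275 in 6 pairs). Between passage 16 and the others the correlation was negative (r from -0.542 to -0.213 in 12 pairs). Each deviation is from the mean of 3 libraries, so deviations sum to 0, and a passage that stands apart imposes such signs. The same-passage values at passage 22 were 0.216, 0.235 and 0.360, and overlap those of passages 22 with 23. The correlations thus tell little on pairing at passage 22. DESeq2 1.42.0 was an alternative. SE values are on the log2 scale, the prior count was 2, and genes with 3 counts or fewer in each untreated library were given as lower bounds against 3 counts per library. Reads carry no molecular identifiers, so this floor covers counting error only. The depth of 17635438 to 19368343 reads limits precision mostly for genes under 1 CPM.

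Gene lists and members were chosen with earlier results of these data known. Genes named are the DEGs of the lists, the 12 largest rises and falls in fold among DEGs whose groups do not overlap, the 12 largest gains and losses in CPM, the 5 lowest FDRs in each direction, the 8 DEGs with the widest and the 8 with the narrowest range over passages, DEGs at the untreated floor, the highest members of lists with no DEG and the genes the study names, in part or whole. KLF13, SAT1, PTGS2, AIFM2, ACSL4, UBB, PSMD12, TFRC, TXNRD1, GCLC, BRF2, CBR3, KCTD21-AS1 and other list members short of the DEG limits were chosen after their values were seen. Gene positions are those of an hg19 annotation, and promoter windows, for 10502 of the tested genes, are from RefSeq on GRCh38.p14. The statistical steps were tested on simulated data. Other filters, scalings, thresholds and left-out libraries were tried as alternatives. One result on a single gene is not reported here.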

Additional observations from a re-analysis of the deposited data

Results flagged for a closer look

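BTG2, an antiproliferative gene of the p53 list, moved in opposite directions in the 2 lines. Its ratio of RSL3 over untreated was below 0 in every MM1S passage, at -0.02, -0.33 and -0.24 on the log2 scale, and above 0 in every MM1R passage, at 0.08, 0.11 and 0.44. The mean ratio in MM1S was -0.20, with 625, 656 and 575 CPM in untreated cells and 614, 522 and 488 CPM after RSL3. In edgeR's fit across all genes the difference between the effects of BTG2 in the 2 lines was -0.40 on the log2 scale, at an unadjusted p of 0.00553 and an FDR of 0.906, so it did not pass the correction.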

How the results depend on the processing

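With the passages as a replicate block, 315 genes were higher and 72 lower. Without the block the counts were 193 and 37. The 9 MM1S libraries alone with the block gave 165 and 47. The 6 libraries compared gave 0 and 0 with the block, at 2826 unadjusted p-values under 0.05, and 3 and 0 without it, at 1963. A minimum count of 50 gave 226 higher and 47 lower, any fold gave 969 and 935, and an FDR under 0.5 gave 600 and 151. Leaving out 1 library gave 68 to 466 higher and 11 to 115 lower, where the fewest came without the untreated library of passage 16. Leaving out the RSL3 library of passage 16 and the block together, an alternative chosen after seeing the data, gave 56 and 11. The cause was not tested in any of these, apart from the fewer libraries of the smaller fits. DESeq2 gave 292 and 69, and other scalings and no filter stayed within 1.5 times.

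The median of the NF-kB list, 0.11, turned to -0.15 without the RSL3 library of passage 16, to -0.12 without that passage and to -0.18 without that library and the block, and ranged up to 0.19 without passage 22. PCDH10 turned to -0.32 under the last of these. Under RLE and upper-quartile scaling, 153 and 152 of 154 named genes kept their call. Depth limits the 38 rising and 8 falling DEGs whose 2 group means are under 1 CPM.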
